A study of Mus musculus with 8 samples.

Results

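The genes described here are *Lck*, *Lat*, *Txk*, *Cd2*, *Cd5*, *Cd6*, *Cd28*, *Skap1* and *Themis*, which encode proteins that act at or next to the T cell antigen receptor. Members were taken as all probes of the deposited table that carry one of these symbols, which gave 21 probes of 9 genes out of 56605 probes of 26866 named genes. Their levels were compared in liver RNA of female NFS/sld mice, where neonatal thymectomy serves as a model of primary Sjögren's syndrome, in which the immune system attacks the glands that make saliva and tears. The Tx group held 4 arrays from mice that had lost the thymus to surgery on day 3 after birth, with liver taken 8 weeks later. The nonTx group held 4 arrays from female NFS/sld mice that kept the thymus. The labels do not give the age of the nonTx mice or say whether they had a sham operation, and although the replicates are named as independent, no label ties each to its own mouse. The p-values therefore reflect the spread among these 8 arrays, part of which may be technical.

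When a T cell receptor binds its ligand, the kinase LCK phosphorylates the CD3 chains, ZAP70 is recruited, and the membrane adaptor LAT is phosphorylated and gathers the proteins that pass the signal on. Kinases of the TEC family, among them TXK, act on phospholipase C gamma at this assembly. CD2 and CD28 add to the signal, CD5 and CD6 tune it, SKAP1 couples it to integrins, and THEMIS is needed for T cells to mature in the thymus. Several of these genes are not private to T cells: LCK and CD2 also occur in NK cells, LAT in mast cells and platelets, and CD5 in B-1 cells. The liver holds resident T cells and NK cells among a large excess of hepatocytes.

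Each array carried RNA of bulk liver, so a smaller number of T cells and less RNA per T cell cannot be told apart. All 8 arrays lay on 1 slide and were read in 1 scan, with the Tx arrays in one row of the slide and the nonTx arrays in the other, so that row and group cannot be told apart. The share of probes well above background ran from 51.1% to 57.12% over the arrays. Having only 4 arrays in each group limits the precision. The 75th percentile of the signal lay between 224.8 and 330 on Tx arrays and between 273.6 and 301.8 on nonTx arrays. Levels below are given as a percentage of that percentile on the same array, a scale on which arrays can be set against each other but probes of different genes cannot.

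Promoter sequences were at hand for 5 of the 9 genes, *Lck*, *Lat*, *Txk*, *Cd5* and *Themis*, as 8 windows from 250 bases before to 50 bases after an annotated start (RefSeq, build GRCm38.p6). The windows printed are those of the receptor's first kinase, *Lck*, and of *Txk* and *Cd5*, whose 2 groups of arrays did not overlap. *Lck* is known to be transcribed from a distal promoter, used in mature T cells, and a proximal promoter, used mainly in the thymus, and it has 2 windows here. Capitals mark GGAAGT, the core bound by ETS family factors, and TGTGGT, the core bound by RUNX family factors, on either strand. All printed windows are on the minus strand and are written in the direction of transcription, the upstream *Lck* start at chr4:129573592-129573891, the downstream *Lck* start at chr4:129558323-129558622, the upstream *Txk* start at chr5:72752728-72753027 and *Cd5* at chr19:10738925-10739224.
Lck, upstream start: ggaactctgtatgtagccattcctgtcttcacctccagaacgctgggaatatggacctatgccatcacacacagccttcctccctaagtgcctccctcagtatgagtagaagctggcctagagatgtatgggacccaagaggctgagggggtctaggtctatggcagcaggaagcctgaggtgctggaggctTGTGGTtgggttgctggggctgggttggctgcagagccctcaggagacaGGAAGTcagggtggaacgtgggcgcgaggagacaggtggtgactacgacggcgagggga
Lck, downstream start: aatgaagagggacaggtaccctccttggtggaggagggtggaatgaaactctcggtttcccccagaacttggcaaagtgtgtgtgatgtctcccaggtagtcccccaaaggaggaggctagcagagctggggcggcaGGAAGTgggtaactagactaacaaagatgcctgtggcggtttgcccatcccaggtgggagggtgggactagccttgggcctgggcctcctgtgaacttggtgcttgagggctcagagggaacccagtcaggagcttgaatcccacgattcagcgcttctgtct
Txk, upstream start: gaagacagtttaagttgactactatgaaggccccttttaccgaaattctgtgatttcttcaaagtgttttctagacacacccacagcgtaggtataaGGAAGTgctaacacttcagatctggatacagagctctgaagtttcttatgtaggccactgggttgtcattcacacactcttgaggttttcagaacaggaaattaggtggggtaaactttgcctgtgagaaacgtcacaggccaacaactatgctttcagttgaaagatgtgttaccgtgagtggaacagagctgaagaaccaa
Cd5: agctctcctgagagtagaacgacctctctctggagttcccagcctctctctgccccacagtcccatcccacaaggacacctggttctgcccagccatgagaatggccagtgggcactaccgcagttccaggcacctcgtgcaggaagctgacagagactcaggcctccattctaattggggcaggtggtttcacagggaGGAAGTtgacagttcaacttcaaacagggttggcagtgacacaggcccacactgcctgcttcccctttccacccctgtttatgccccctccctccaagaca

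GGAAGT stood in 5 of the 8 windows, against 23.8% of all 32851 promoter windows of the same length. TGTGGT stood in 3 of 8, against 16.8%, and no copy of one overlapped a copy of the other. The E-box letters CANNTG stood in 7 of 8, against 72.3%, and the letters TATAAA in 0 of 8, against 13.6%. Both strands were searched, the motifs were chosen after the windows had been seen, the 2 windows of *Themis* overlap each other, and a match is only a description of the letters. The arrays do not show which start a transcript came from.

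Of the 9 genes, 8 passed the filter on dim probes, which asked for a signal well above background on at least 3 of the 4 arrays of a group. *Lat* and *Txk* met it through nonTx alone, with 4 of 4 nonTx arrays and 2 of 4 Tx arrays well above background. For these genes the filter itself favoured a lower level in Tx, and the counts below include them. The 9 genes were also chosen with earlier results of these data known, so the counts below are not independent of that choice. All 8 were lower in Tx than in nonTx, by log2 differences between -0.95 and -0.38 (median -0.58). The median over all 16495 genes tested was 0.03, and 43.7% of them lay below 0. By limma, 8 of the 8 were lower at an unadjusted p under 0.05, where 5.29% of all tested genes were, but 0 of them passed the threshold of 0.05 after Benjamini-Hochberg adjustment, and neither did any of the 30955 probes tested (0%), of which 4085 (13.2%) had an unadjusted p under 0.05. In 3 of the 8, *Txk*, *Cd5* and *Cd28*, every Tx array lay below every nonTx array, as it did in 2.96% of all tested genes. The 2-sided exact permutation test, whose smallest p with 4 arrays against 4 is 0.0286, falls under 0.05 only where the groups are fully apart, so it gave the same 3 and adds nothing to that count. The count of 8 was 3 with normexp background correction, which also started from the median spot signal and added an offset of 50, and 5 with scaling to the median. It was 4 without Tx replicate 3, 4 without nonTx replicate 4, and 5 without nonTx replicate 2 or 3.

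**Figure D1:**
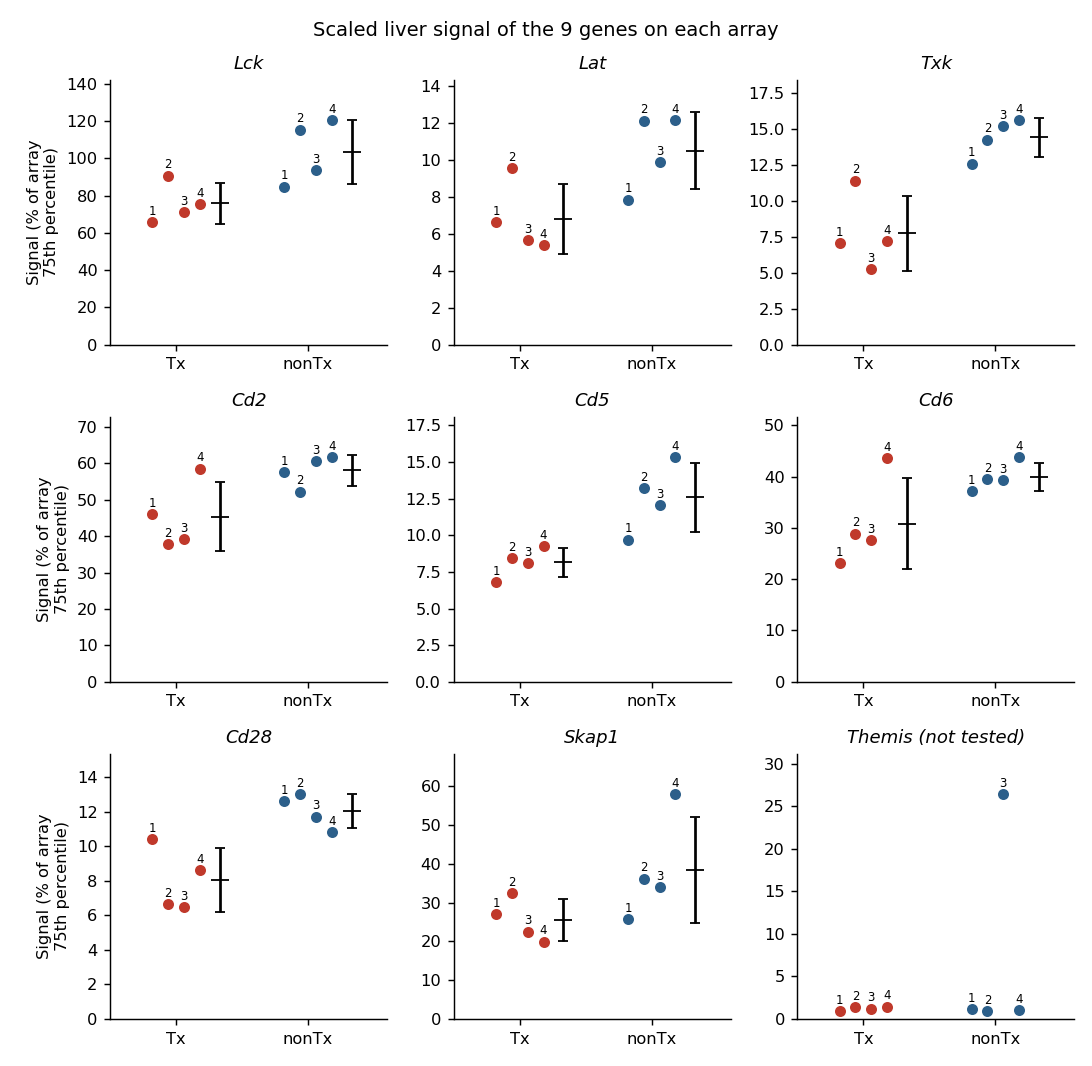
Signal of the 9 genes on each array as a percentage of the array's 75th percentile (vertical axis, linear, from 0), with Tx arrays in red on the left of each panel, nonTx arrays in blue on the right, replicate numbers above the points, and bars for the mean ± SD over 4 arrays. *Txk*, *Cd5* and *Cd28* show no overlap between the groups, and the *Themis* panel, its brightest probe, shows a signal of 26.4% on nonTx replicate 3 and at most 1.44% elsewhere.

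Among the surface receptors, *Cd5*, which encodes a receptor that damps T cell receptor signals, read 6.82, 8.46, 8.07 and 9.24% on Tx replicates 1 to 4, against 9.70, 13.2, 12.1 and 15.3% on nonTx replicates 1 to 4. The groups did not overlap, although the highest Tx array and the lowest nonTx array lay close together. *Cd5* averaged 8.15 ± 1.01% in Tx and 12.6 ± 2.34% in nonTx (SD, n = 4 each), and was 1.53-fold lower in Tx (log2 difference -0.62 ± 0.20, SE). The limma p of *Cd5* was 0.0109 and its adjusted p 0.311. With normexp background correction the difference was -0.06 ± 0.10 (limma p 0.565).

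*Cd28*, which encodes the main costimulatory receptor of T cells, read 10.4, 6.66, 6.48 and 8.61% on Tx replicates 1 to 4, against 12.6, 13.0, 11.7 and 10.8% on nonTx replicates 1 to 4. Tx replicate 1 was the highest Tx array and came close to the lowest nonTx array, replicate 4, without reaching it. *Cd28* averaged 8.04 ± 1.85% in Tx and 12.03 ± 0.970% in nonTx (SD, n = 4 each), a 1.52-fold lower level in Tx (log2 difference -0.61 ± 0.20, limma adjusted p 0.317). With normexp background correction the difference was -0.07 ± 0.07 (limma p 0.329). The other probe of *Cd28* stayed near background on all 8 arrays.

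*Cd2* encodes an adhesion receptor that binds CD48 in the mouse, and both of its probes were well above background on all 8 arrays. Its brightest probe read 46.0, 37.8, 39.1 and 58.5% on Tx replicates 1 to 4, against 57.7, 52.2, 60.6 and 61.6% on nonTx replicates 1 to 4. Tx replicates 1 to 3 lay below all nonTx arrays and Tx replicate 4 lay among them. The difference was -0.38 ± 0.15 on the log2 scale (limma adjusted p 0.349), and the second probe, at -0.40 ± 0.15 (limma adjusted p 0.333), gave the same direction and nearly the same size. On the second probe Tx replicate 4 again was the highest Tx array, with 53.7%, and lay inside the nonTx range of 52.8 to 59.5%.

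*Cd6*, which encodes a receptor related to CD5 that binds ALCAM, read 23.1, 28.9, 27.6 and 43.6% on Tx replicates 1 to 4, against 37.1, 39.5, 39.3 and 43.8% on nonTx replicates 1 to 4. Here too Tx replicates 1 to 3 lay below every nonTx array and Tx replicate 4 stood beside the highest of them. *Cd6* averaged 30.8 ± 8.88% in Tx and 39.9 ± 2.78% in nonTx (SD, n = 4 each). It had the largest p of the 8 genes (log2 difference -0.41 ± 0.18, limma p 0.0481, adjusted p 0.375), and with normexp the difference was -0.26 ± 0.12 (limma p 0.0522).

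Of the kinases, *Txk*, the TEC family kinase also called RLK, had the largest difference of the 8 genes. It read 7.08, 11.4, 5.24 and 7.22% on Tx replicates 1 to 4, against 12.6, 14.3, 15.2 and 15.6% on nonTx replicates 1 to 4. Every Tx array lay below every nonTx array, and Tx replicate 2 came nearest to them. *Txk* averaged 7.74 ± 2.61% in Tx and 14.4 ± 1.34% in nonTx (SD, n = 4 each), and was 1.93-fold lower in Tx (log2 difference -0.95 ± 0.24, SE, 95% interval -1.48 to -0.42). Its limma p was 0.00263 and its adjusted p 0.283, and its difference was the 244th lowest of 16495 genes. The probe was well above background on 2 of 4 Tx arrays and on 4 of 4 nonTx arrays, so part of the Tx signal lay near the limit of measurement. Without Tx replicate 2 the difference was -1.16 ± 0.20 and the adjusted p 0.0445, the lowest of a range that reached 0.515 over the alternatives run, while with normexp background correction the difference was -0.19 ± 0.09 (limma p 0.0714).

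*Lck*, the kinase that starts receptor signalling, read 65.8, 90.8, 71.0 and 75.7% on Tx replicates 1 to 4, against 84.8, 115.5, 93.8 and 120.6% on nonTx replicates 1 to 4. Tx replicates 1, 3 and 4 lay below all nonTx arrays, and Tx replicate 2 lay above nonTx replicate 1. *Lck* averaged 75.8 ± 10.8% in Tx and 103.7 ± 17.1% in nonTx (SD, n = 4 each) and was 1.36-fold lower in Tx (log2 difference -0.45 ± 0.15, limma adjusted p 0.313). A second probe of *Lck* was well above background on 0 of 4 Tx arrays and 1 of 4 nonTx arrays and gives no fold.

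Of the adaptors, *Lat*, the membrane scaffold of the receptor, read 6.61, 9.55, 5.65 and 5.38% on Tx replicates 1 to 4, against 7.86, 12.1, 9.88 and 12.2% on nonTx replicates 1 to 4. Tx replicate 2 lay inside the nonTx range and the other 3 Tx arrays lay below it. *Lat* was 1.56-fold lower in Tx (log2 difference -0.64 ± 0.25, limma adjusted p 0.341), from a probe that was well above background on 2 of 4 Tx arrays and on 4 of 4 nonTx arrays. With normexp background correction its difference was -0.06 ± 0.10 (limma p 0.604).

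*Skap1*, the adaptor that links the receptor to integrins, read 27.1, 32.4, 22.5 and 19.9% on Tx replicates 1 to 4, against 25.7, 36.2, 34.0 and 57.9% on nonTx replicates 1 to 4. Tx replicates 1 and 2 lay inside the nonTx range, and nonTx replicate 4 stood above the other 7 arrays. The difference was -0.55 ± 0.25 on the log2 scale (limma adjusted p 0.375), and it was -0.34 without nonTx replicate 4 and -0.35 with normexp. The other 5 probes of *Skap1* were dim, with 1 of them well above background on a single nonTx array and 4 on none.

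*Themis* was not tested. Of its 4 probes, 3 stayed near background on all 8 arrays, with raw signals between 2.41 and 3.98. The fourth was well above background on nonTx replicate 3 alone, with a raw signal of 76.35, against at most 3.37 on Tx arrays and 3.47 on the other 3 nonTx arrays. Since no other *Themis* probe was bright on that array, no level of *Themis* was established in either group.

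**Figure D2:**
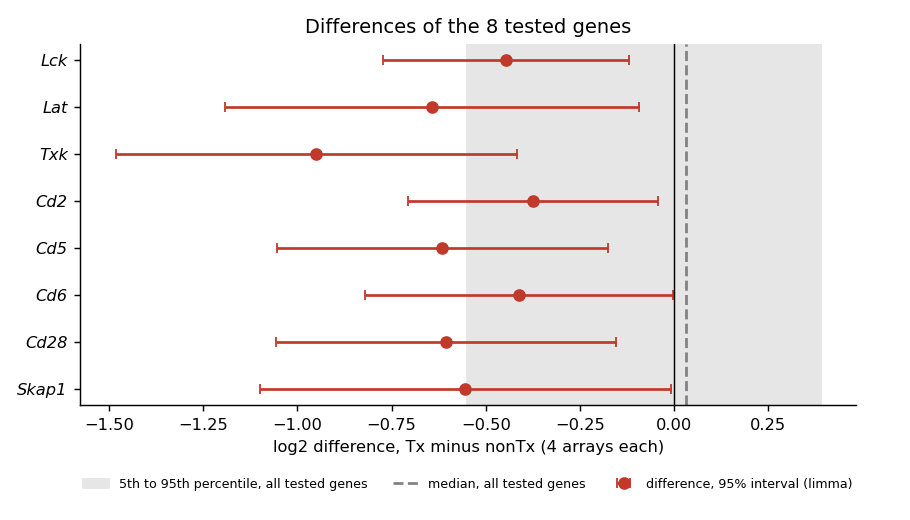
Log2 difference, Tx minus nonTx, of the 8 tested genes (points) with limma's 95% interval (bars), beside the 5th to 95th percentile of all 16495 tested genes (grey band, -0.55 to 0.39) and their median (dashed line, 0.03). All 8 points lie left of 0, and *Txk* lies farthest left at -0.95.

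The 8 genes did not vary alike from array to array. On Tx replicate 3 none of them lay inside the nonTx range, and this array had the lowest mean deviation of the 8 genes from their means over all arrays, -0.48 on the log2 scale. Tx replicate 2 was nearest to nonTx, with a mean deviation of -0.12, and it was the highest Tx array for *Lck*, *Lat*, *Txk* and *Skap1*, which are the tested genes for intracellular or membrane-anchored signalling proteins. The surface receptors did not follow it: *Cd2* was lowest among the Tx arrays on replicate 2, while *Cd2*, *Cd5* and *Cd6* were highest on replicate 4 and *Cd28* on replicate 1. Tx replicate 4 combined the lowest *Lat* and *Skap1* of all 8 arrays with *Cd2* and *Cd6* inside the nonTx range. Among the nonTx arrays, replicate 4 was highest for 7 of the 8 genes, all but *Cd28*, and replicate 1 was lowest for 6, all but *Cd2* and *Cd28*. This grouping was seen in the values and was not tested.

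**Figure D3:**
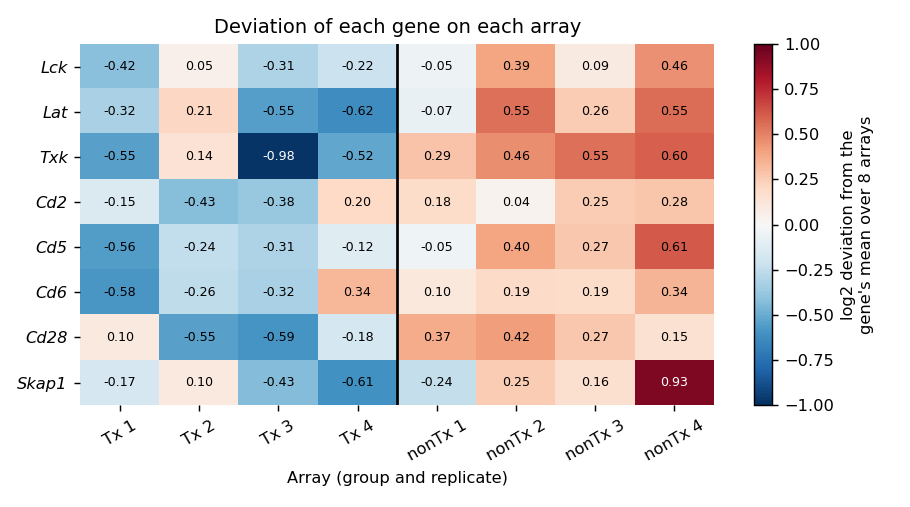
Deviation of each of the 8 tested genes (rows) on each array (columns, Tx left of the line and nonTx right of it) from its mean over the 8 arrays, on the log2 scale, blue below and red above. The lowest value is *Txk* on Tx replicate 3 (-0.98) and the highest is *Skap1* on nonTx replicate 4 (0.93).

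The wider pathway differed less evenly than these 8 genes. Of 65 other genes of the pathway, 58 were tested. The log2 difference was below 0 for 38 of them and above 0 for 20, and its median was -0.07, against 0.03 over all genes. At an unadjusted limma p under 0.05 there were 8 lower and 2 higher, where 5.29% of all tested genes were lower and 8.65% higher, and 0 passed after adjustment. The count of 10 was 6 without Tx replicate 4 and 6 without nonTx replicate 4. Of the 8 lower genes, *Sit1* and *Grap2* passed the filter through nonTx alone. *Sit1* was well above background on 2 of 4 Tx arrays and *Grap2* on 0 of 4. For such genes the filter itself favoured a lower level in Tx, and the 38 also include *Cd8a*, which met it in the same way. The pathway list was also chosen with earlier results of these data known.

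Within the CD3 complex, which carries the signal into the cell, 2 of 4 chains were lower at an unadjusted p under 0.05 and the other 2 were higher in value. *Cd3d* read 36.5, 40.0, 29.4 and 44.0% on Tx replicates 1 to 4, against 88.5, 80.3, 73.9 and 92.3% on nonTx replicates 1 to 4, with a wide gap between the groups (log2 difference -1.17 ± 0.14, limma adjusted p 0.0577). *Cd3g* differed by -0.84 ± 0.17, also with no overlap. *Cd3e*, at 0.13 ± 0.12, and *Cd247*, at 0.34 ± 0.26, lay on the other side of 0, but the second probe of each, at -0.03 for *Cd3e* and -0.09 for *Cd247*, did not.

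Of 6 tested kinases, 0 were lower and 1 higher at an unadjusted limma p under 0.05. *Zap70*, the kinase that follows LCK, was higher in value in Tx, with 1642, 2195, 1794 and 2305% on Tx replicates 1 to 4, against 1712, 1470, 691.2 and 1256% on nonTx replicates 1 to 4. Tx replicate 1 lay inside the nonTx range, and the difference was 0.69 ± 0.25 (limma p 0.0194, adjusted p 0.325) and 0.73 on a second probe. The kinase with the next smallest p was *Prkcq*, which encodes protein kinase C theta, with a difference of -0.32 ± 0.17 (limma p 0.0872, adjusted p 0.423).

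Among 18 tested adaptors, 4 were lower and 1 higher at an unadjusted p under 0.05. Of the 4 lower, *Sit1* and *Grap2* passed the filter through nonTx alone. *Pag1*, whose product holds the inhibitory kinase CSK at the membrane, averaged 46.0 ± 6.06% in Tx and 68.6 ± 9.21% in nonTx (SD, n = 4 each), a log2 difference of -0.58 ± 0.14 with no overlap. *Sit1*, an inhibitory membrane adaptor, had a difference of -0.72 ± 0.27 from a probe that cleared the background on 2 of 4 Tx arrays. *Skap2*, the close relative of *Skap1* that is found in many cell types, averaged 492.0 ± 25.1% in Tx and 425.1 ± 27.9% in nonTx (SD, n = 4 each), a difference of 0.21 ± 0.08 on the log2 scale that ran against that of *Skap1*. The others of these 5 were *Pstpip1* (-1.20 ± 0.53), which binds CD2, and *Grap2*, which joins LAT to SLP-76. *Pstpip1* read 45.3, 132.2, 14.7 and 69.5% on Tx replicates 1 to 4, against 101.7 to 131% on nonTx arrays. Its Tx replicate 2 thus lay above every nonTx array and its Tx replicate 3 far below the rest. *Grap2* stayed below the limit of measurement on all Tx arrays and was at least 1.26-fold lower in Tx, the mean of nonTx set against that limit or the probe's own signal, whichever was higher (limma adjusted p 0.357). *Skap2*, *Pstpip1* and *Grap2* were named after their values had been seen.

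Of 14 tested effectors, 2 were lower at an unadjusted p under 0.05 and 0 higher. *Nfatc1* (-0.41 ± 0.13) and *Nfatc2* (-0.53 ± 0.21), transcription factors that calcium signals from the receptor bring to the nucleus, each had all Tx arrays below all nonTx arrays, while a dimmer probe of *Nfatc1* differed by -0.02.

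No gene reached an unadjusted limma p under 0.05 among 5 tested coreceptors and costimulatory receptors, 4 ligands of CD2, CD6 and CD28, 5 phosphatases and 2 ubiquitin ligases. Those with the smallest p in each group were *Cd4* (0.32 ± 0.18) and *Cd8a*, *Cd80* (-0.37 ± 0.18) and *Alcam* (-0.14 ± 0.10), *Ubash3b* (-0.19 ± 0.11) and *Ptpn22* (-0.28 ± 0.18), and *Cbl* (-0.12 ± 0.13) and *Cblb* (-0.01 ± 0.18). *Cd8a* was well above background on 0 of 4 Tx arrays and 3 of 4 nonTx arrays, its groups overlapped, and it gives no fold. *Alcam*, the ligand of CD6, and *Cd80*, a ligand of CD28, thus differed by less than their receptors' genes in value, a contrast that was not tested. Other probes of *Cd80* (0.19), *Alcam* (up to 0.00), *Ubash3b* (0.09) and *Cblb* (from -0.43 to 0.08) did not all share the sign of the brightest one.

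**Figure D4:**
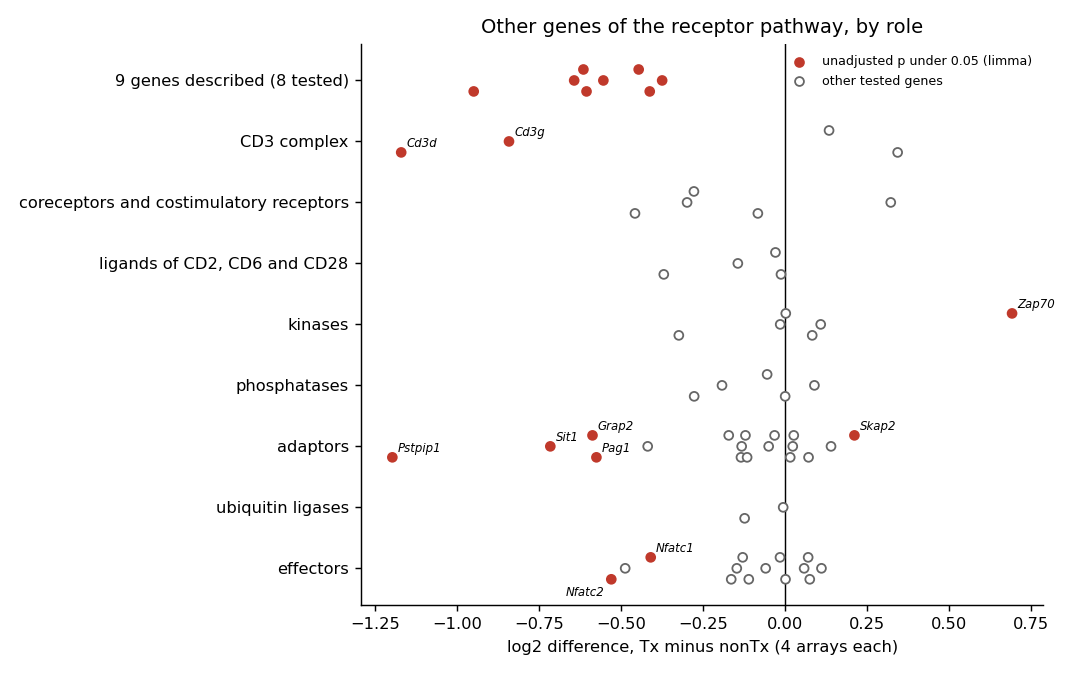
Log2 difference, Tx minus nonTx (horizontal axis), of the 8 tested genes (top row) and of 58 other tested pathway genes by role, filled red at an unadjusted limma p under 0.05 and open otherwise. Of the other pathway genes *Pstpip1* lies lowest at -1.20 and *Zap70* highest at 0.69.

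Among the genes whose arrays ran most like the mean of the 8 were *Cd3g*, *Rasal3*, *Gimap3* and *Fap*, with Pearson r over the 8 arrays of 0.995, 0.992, 0.982 and 0.972. With the group means removed, r was 0.973, 0.969, 0.906 and 0.876 in that order, over the same 8 arrays. These values describe the arrays at hand, share the arrays and the scaling with the 8 genes, and were picked from the highest of all genes. *Gimap3*, a GTPase gene of lymphocytes, read 30.7, 40.2, 29.3 and 43.8% on Tx replicates 1 to 4, against 60.7, 73.0, 68.9 and 90.4% on nonTx replicates 1 to 4. Like *Cd3g* it was lowest on Tx replicate 3 and highest on nonTx replicate 4.

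Markers of the cells in the samples moved unevenly beside the 8 genes. All 6 hepatocyte markers were well above background on every array, with summed levels of 2330 to 2740 times the 75th percentile on Tx arrays and 2480 to 2710 times on nonTx arrays, and 1 of the 6, *Ttr*, was lower at an unadjusted p under 0.05 (-0.37 ± 0.07, with 0.09 on its other probe). Of 9 T cell markers, 6 were lower in value, 3 of them at an unadjusted p under 0.05 (*Cd3d*, *Cd3g* and *Lef1*), and the summed level, carried mainly by *Cd4* and *Cd247*, was 26.4 to 40.3 on Tx arrays and 26 to 27.9 on nonTx arrays. *Lef1* passed the filter through nonTx alone, with 1 of 4 Tx arrays well above background, and its groups overlapped. Of 8 NK cell markers 7 were tested, 4 lower in value and 3 of these at an unadjusted p under 0.05: *Il2rb* (-0.85 ± 0.25), *Klrb1c* (-0.68 ± 0.23) and *Klrd1* (-0.44 ± 0.14). *Klrb1c* also passed the filter through nonTx alone. It was well above background on 1 of 4 Tx arrays, so most of its Tx signal lay near the limit of measurement. The NK sum was 4.92 to 9.67 on Tx arrays and 4.43 to 11.6 on nonTx arrays, *Prf1* differed by 0.03 ± 0.20 and *Gzma* by 0.06 ± 0.34, and *Eomes* stayed near background on all 8 arrays.

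Of 7 B cell markers 5 were tested, with 0 at an unadjusted p under 0.05 and sums of 1.86 to 2.69 on Tx arrays and 1.59 to 2.48 on nonTx arrays, while *Cd79a* and *Blk* were not well above background. The 6 Kupffer cell markers had 0 at an unadjusted p under 0.05 and sums of 93.5 to 141 on Tx arrays and 96.9 to 123 on nonTx arrays. Of 6 neutrophil markers 5 were tested and all were higher in value, 3 at an unadjusted p under 0.05 (*Retnlg*, *S100a8* and *S100a9*), with sums of 7.04 to 13.1 on Tx arrays and 6.11 to 8.07 on nonTx arrays. Of the 5 platelet markers 4 were tested and *Pf4* was higher at an unadjusted p under 0.05 (0.56 ± 0.25), with sums of 1.48 to 4.4 on Tx arrays and 1.91 to 2.22 on nonTx arrays. Only 1 of 5 mast cell markers, *Tpsb2*, was tested, at 0.12 to 0.631 on Tx arrays and 0.409 to 0.539 on nonTx arrays. The part of NK cells, platelets or any other of these cell types in the differences of the 8 genes was not tested.

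**Figure D5:**
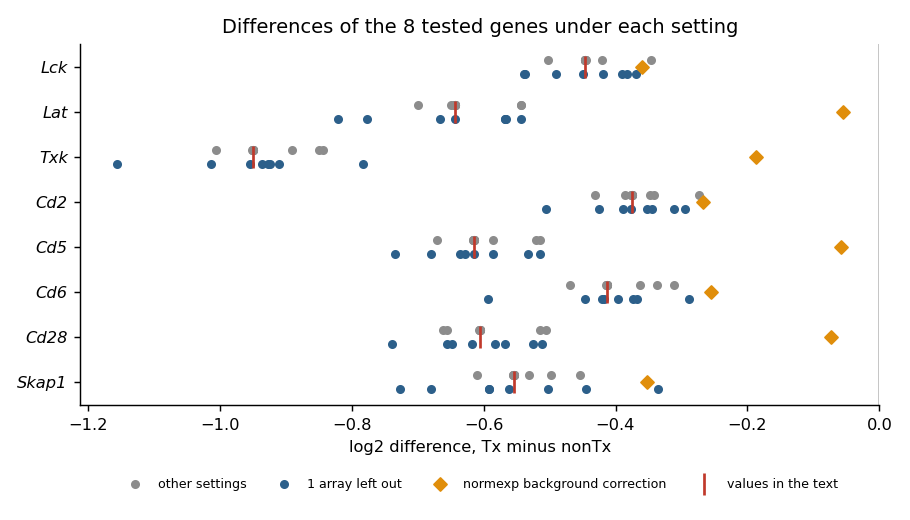
Log2 difference, Tx minus nonTx, of the 8 tested genes as given in the text (red bars), with 1 array left out (blue), with normexp background correction (orange diamonds) and under the other settings (grey). All points lie below 0, and the dim genes *Lat*, *Txk*, *Cd5* and *Cd28* lie nearest to 0 with normexp.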

How the data were processed

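Total RNA of liver (0.5 ug per array, per the labels' protocols) was labelled with Cy3 and hybridised to 1-colour Agilent arrays, 4 Tx and 4 nonTx. Per the file headers, each spot's intensity in the deposited scanner files had its background subtracted and was detrended by Feature Extraction 10.7.1.1 (version 9.1 in the submitters' processing notes), and the array design refers to build mm9. The deposited table repeats these intensities and holds log2 values that the authors scaled and centred per probe, rebuilt here within 0.00137 for the 21 probes. The log2 difference of *Txk* in the authors' deposited table is -0.95, Tx minus nonTx.

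Here, spots of a probe were averaged, control spots left out, outlier spots set to missing, and the array's 75th percentile subtracted from log2 intensity. Probes with 3 or more of a group's 4 arrays well above background and 2 or more values in each group were tested with limma 3.58.1 in R 4.3.3 (variance trend, 6 residual degrees of freedom, Benjamini-Hochberg over 30955 probes, threshold 0.05), and tables were handled in data.table (version 1.17.8). A gene is its brightest tested probe, and symbols were updated through Entrez IDs (43901 of 46119 matched). The steps were tested on simulated data. Genes named are the 9 members, up to 2 pathway genes per role by smallest p, the 5 of likest pattern, and markers a result turns on. Of the pathway list, 2 genes, both lower in Tx, are not reported here and are left out of its counts and of the genes of like pattern. The members, lists and rules were chosen with earlier results of these data known. Alternatives changed the background correction, scaling, filter, floor, outliers, fit, test, probe summary, replicate block and arrays used.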

Additional observations from a re-analysis of the deposited data

Results flagged for a closer look

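In 82 groups of 4 arrays, 2 arrays stood apart from the other 3 of their group by Dixon's test, which chance would give in about 1 group in 20. A *Themis* probe (A_55_P1972436) was high on nonTx replicate 3, where the gap to the next array took 0.94 of the group's range. Its raw signals were 3.14, 3.37, 2.76 and 3.24 on Tx replicates 1 to 4, against 3.47, 2.60, 76.35 and 2.75 on nonTx replicates 1 to 4. A *Skap1* probe (A_55_P2791679) was high on nonTx replicate 2 (0.875), with 7.09 against at most 3.81 on the other nonTx arrays, and stayed near background on all 8 arrays.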

How the results depend on the processing

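The 8 tested genes were lower in Tx under all 24 alternatives run. Some of these could not change the sign. The fit without the variance trend, the robust fit, the replicate block and the exact permutation test left each difference as it was. So did the settings that changed only the filter on dim probes, and the floor under the signal. Keeping outlier spots or using the authors' log2 values left each difference nearly as it was, and averaging a gene's probes changed that of *Cd2* alone. These settings therefore add little to the shared direction. Of the 192 pairs of gene and alternative, 147 kept an unadjusted p under 0.05 and 45 did not, most often for *Cd6* (15) and *Skap1* (13). The number of the 8 genes at an unadjusted p under 0.05 was 3 with normexp, 5 with scaling to the median, 3 by the exact permutation test and 4 to 6 with 1 array left out. Their median difference was -0.22 with normexp, a setting that changed the signal used (the median of the spot), the background correction and the offset together, and ran from -0.65 to -0.44 with 1 array left out. Scaling to the median moved the median of all genes to 0.13. After adjustment, 0 of the 8 genes passed except without Tx replicate 2, where 1 (*Txk*) did, so the range with 1 array left out was 0 to 1. Over all probes, the number past the adjusted threshold was 2 with normexp, 6 with scaling to the median, 1 with the authors' log2 values, 1 without the variance trend, 5 with the robust fit, 7 with array weights and 0 to 188 with 1 array left out (188 without Tx replicate 2, 12 without Tx replicate 3). The number of probes at an unadjusted p under 0.05 was 6135 without the filter on dim probes, 2430 by the exact permutation test and 2896 to 6297 with 1 array left out, the highest without Tx replicate 1. The number of other pathway genes ran from 6 to 12 with 1 array left out. With the replicate number as a block, 7 of the 8 genes had an unadjusted p under 0.05 (all but *Skap1*, 0.0714), 1 probe passed the adjusted threshold, and the median stayed at -0.58. Arrays of the same number deviated together with r of 0.05, 0.08, 0.10 and -0.01, and not every array correlated best with its own number, so the numbers were not taken as pairs. The cause of these changes was not tested. A block for slide or scan could not be fitted, since there was 1 slide and 1 scan. The lowest raw signal well above background was 12.2 to 16.1 on an array, and *Lat*, *Txk*, *Cd5* and *Cd28*, with raw Tx signals of 12.03 to 34.3, lay near it.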
